A study of Mus musculus with 18 samples.

Results

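The 10 genes described here encode proteins that make, release, bind or relay the Hedgehog signal between the ligand and the GLI transcription factors: Shh, Ihh, Disp1, Scube1, Gas1, Cdon, Boc, Smo, Sufu and Kif7. They were taken by gene symbol, and all 10 were found among the 23337 genes of the count table. The cells were mouse embryonic stem cells of 1 line, GLI1-FTA in the A2Lox.cre background, differentiated towards heart muscle. In GLI1 overexpression (OE) cells the transcription factor GLI1 was induced with doxycycline at 500 ng/ml for 24 hours, between day 5 (D5) and day 6 (D6), after which the drug was washed out.

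PolyA RNA was sequenced from 18 libraries in 7 groups. GLI1 OE cells were collected at D6 (n = 3), at D8 (n = 2) and at D12 (n = 2), and untreated controls at D6 (n = 3), D8 (n = 2), D12 (n = 2) and D5 (n = 4). D5 and D6 cells are labelled as cardiac progenitors, and D8 and D12 cells as cardiomyocytes. All groups share the line, and since controls were left untreated, an effect of doxycycline and one of GLI1 cannot be told apart. The labels do not say that replicates were separate cultures, so a p-value here covers the spread among libraries, and that spread may be technical. Libraries are named by the number in the deposited count table.

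Hedgehog signalling starts when a cell secretes a lipid-modified ligand such as Sonic hedgehog (Shh) or Indian hedgehog (Ihh). Dispatched (Disp1) frees the ligand from the membrane, and secreted SCUBE proteins carry it away. On the receiving cell, Gas1, Cdon and Boc are co-receptors that help the ligand bind Patched. Patched then stops inhibiting Smoothened (Smo), the membrane protein that relays the signal at the primary cilium. Sufu holds GLI proteins in check, and the kinesin Kif7 works at the tip of the cilium on the same step. Patched and Gli1 are themselves transcribed in response to the signal. In the embryo the pathway acts on second heart field progenitors before they differentiate.

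Because GLI1 binds DNA, the promoters of the member with the clearest change, Gas1, and of the member most often higher after induction, Scube1, are shown. Both come from RefSeq on mouse assembly GRCm38.p6, minus strand, and cover the 250 bases before the transcript start, printed 5′ to 3′. The Gas1 window lies at chr13:60177536-60177785 and the Scube1 window at chr15:83725040-83725289. Capitals in the Scube1 window mark a stretch with 7 of the 9 letters of GACCACCCA, the sequence GLI factors are known to prefer, searched on both strands.
Gas1: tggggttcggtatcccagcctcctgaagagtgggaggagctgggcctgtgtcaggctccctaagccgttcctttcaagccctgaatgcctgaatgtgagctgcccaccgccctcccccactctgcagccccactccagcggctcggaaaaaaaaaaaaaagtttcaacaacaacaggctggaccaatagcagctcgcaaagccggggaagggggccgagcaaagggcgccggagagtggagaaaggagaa
Scube1: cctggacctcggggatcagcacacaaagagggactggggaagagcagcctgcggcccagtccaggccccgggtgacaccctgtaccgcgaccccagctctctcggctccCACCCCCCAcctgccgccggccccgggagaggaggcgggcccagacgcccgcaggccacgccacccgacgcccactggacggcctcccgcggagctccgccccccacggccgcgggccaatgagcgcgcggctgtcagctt
The best match in the Gas1 window holds 6 of 9 letters, and nothing in it is capitalised. A match of at least 7 letters stands in 51.8% of 32851 promoters of the same length, at least 8 letters in 5.79% and all 9 in 0.225%. An entry was present for 8 of the 10 genes, and none of the 8 reached 8 letters. These matches describe letters only.

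Total counts per library were 18470785 to 26184339. Of the 23337 genes, 14892 passed the filter on low counts, and so did 9 of the 10 members; Ihh did not. Gli1, the induced gene, averaged 908.8 ± 133.8 CPM (counts scaled to library size) in D6 GLI1 OE cells and 13.99 ± 7.28 CPM in D6 controls (SD, n = 3 each). Its receptor target Ptch1 averaged 1010 ± 98.2 CPM in D6 GLI1 OE cells and 53.2 ± 19.7 CPM in D6 controls. All 10 listed cardiac progenitor markers and all 12 cardiomyocyte markers had counts in every group. In bulk RNA, fewer cells of a type and less RNA per cell cannot be told apart. D5 control libraries 1 and 2 were closer to each other than other D5 pairs, with a chi-square per gene of 6.96 against 51.5 to 95.7, yet differed by more than sampling noise and were kept as 2 samples.

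At D5, before induction, the transcripts of the receiving side were more abundant than those of the ligands. The authors' TPM values, transcript levels scaled to length and depth and so comparable between genes, gave Smo the highest level, 89.2 ± 3.16 TPM (SD, n = 4). Cdon followed at 47.8 ± 20.2 TPM and Gas1 at 34.4 ± 10.1 TPM. Sufu had 33.2 ± 9.93 TPM, and Disp1 27.0 ± 6.09 TPM. The ranges of Cdon, Gas1, Sufu and Disp1 overlapped, so their order is not resolved, whereas Smo was above each of them in all libraries. Kif7 had 15.6 ± 1.39 TPM, below every library of Disp1, and its range overlapped that of Boc at 10.7 ± 4.32 TPM. Scube1 had 4.10 ± 3.15 TPM, with a range reaching into that of Boc. Shh had 1.00 ± 0.634 TPM. Ihh was listed at 0 in 3 libraries and at 0.1077 TPM in the fourth.

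The D5 libraries also differed among themselves. Gas1 had 56.7, 62.8, 45.31 and 30.81 CPM in libraries 1 to 4. Cdon had 201, 222.7, 84.9 and 119.8 CPM in the same libraries. Boc had 27.37, 30.79, 13.8 and 14.81 CPM. All 3 co-receptors were higher in libraries 1 and 2 than in libraries 3 and 4. Scube1 ran the other way, with 7.262, 8.021, 31.38 and 12.2 CPM. The sum of 12 cardiomyocyte markers was 5555, 5285, 1689 and 2469 CPM in these libraries, and its part in the differences was not tested. Smo varied least, from 144.9 to 160.2 CPM.

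**Figure D1:**
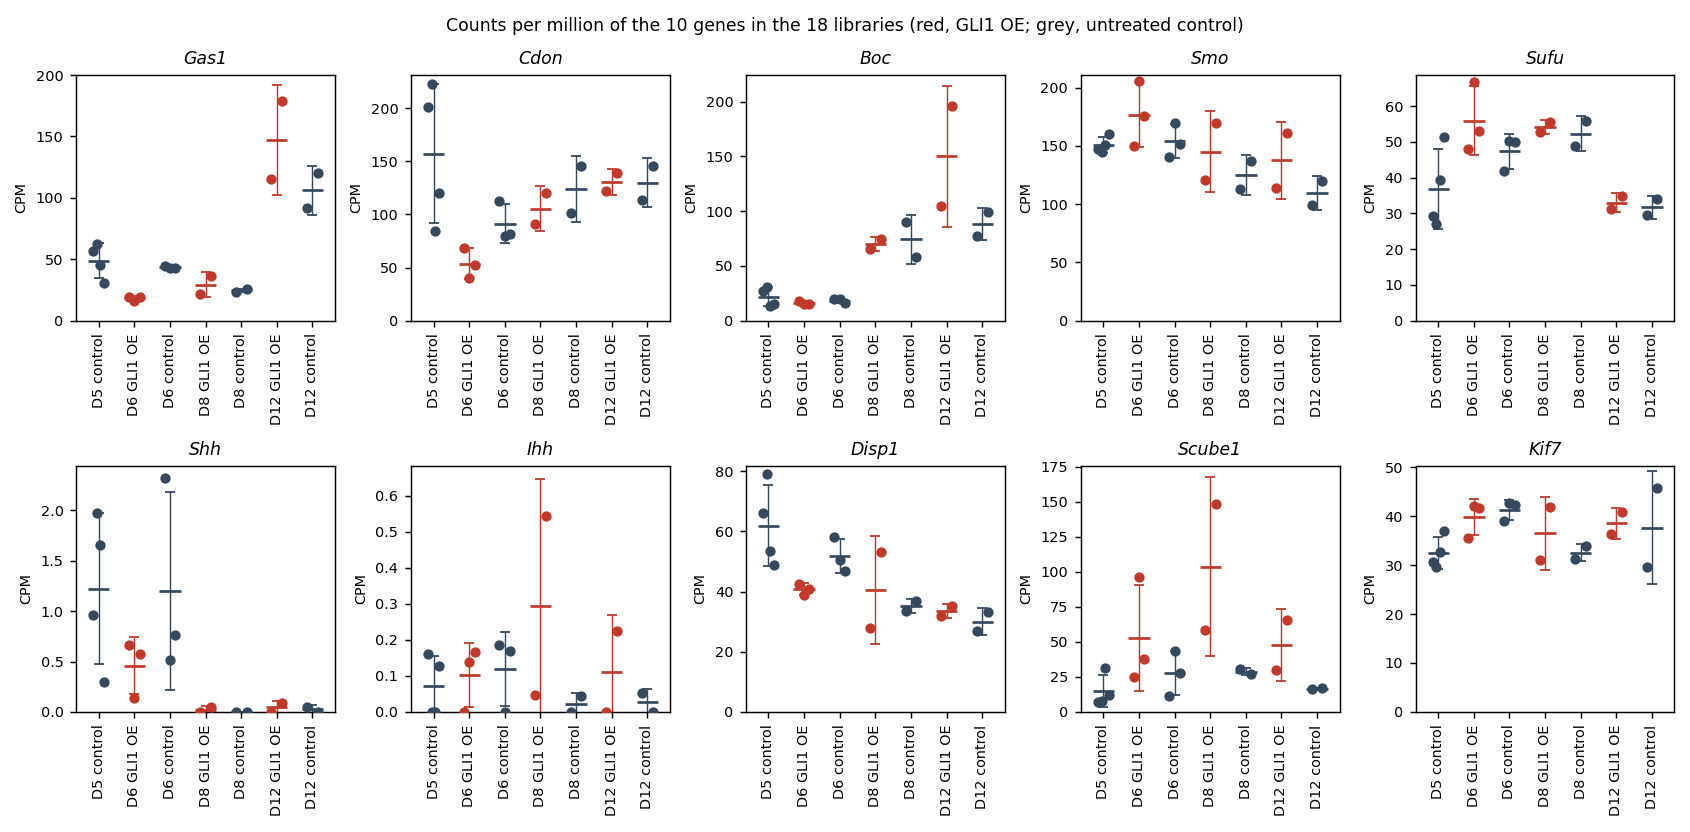
CPM of each of the 10 genes by day (linear axis from 0, one panel per gene), with GLI1 OE and untreated control libraries as points and group mean and SD marked. Gas1 libraries at D6 sit at 16.23 to 19.51 CPM in GLI1 OE cells and at 42.67 to 44.37 CPM in controls; bars of Shh and Ihh that would pass below 0 end at the axis.

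The plot of CPM by day shows all libraries behind the comparisons that follow. Gas1, the co-receptor that binds ligand together with Patched, was the one member that passed the test at D6. It had 18.99, 16.23 and 19.51 CPM in the D6 GLI1 OE libraries 12, 16 and 4, against 44.37, 42.84 and 42.67 CPM in the D6 control libraries 11, 15 and 3. The groups did not overlap, and each varied little. Gas1 fell by 1.25 ± 0.25 on the log2 scale (SE; 95% interval -1.78 to -0.71; edgeR quasi-likelihood test, Benjamini-Hochberg adjusted p = 0.0103). This was 1 of 9 members tested, against 4.14% of all genes called at D6 and 1.12% called lower. Without GLI1 OE library 16 the adjusted p was 0.0602 (log2 change -1.17), and with any 1 of the other 5 D6 libraries left out it stayed under the threshold.

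Cdon, a co-receptor of the immunoglobulin family, had 68.87, 40.42 and 52.22 CPM in D6 GLI1 OE libraries 12, 16 and 4, and 112.3, 79.51 and 81.44 CPM in D6 control libraries 11, 15 and 3. All GLI1 OE values lay below all control values. The log2 change was -0.76 ± 0.32 (edgeR adjusted p = 0.244), so Cdon did not pass. In the authors' deposited table its log2 fold change was -0.75 with an adjusted p of 0.0105, and that of Gas1 -1.24 with 2.71e-20. Boc, the close relative of Cdon, had 17.56, 15.63 and 15.59 CPM in D6 GLI1 OE libraries and 19.35, 19.95 and 15.9 CPM in D6 controls. The groups overlapped, with a log2 change of -0.18 (95% interval -0.84 to 0.48). The summed markers of mesenchyme and smooth muscle were 3281 to 4888 CPM in D6 GLI1 OE cells and 5440 to 6689 CPM in D6 controls, with 0 of 10 called by edgeR. Cardiomyocyte markers summed to 1629 to 5177 CPM in D6 GLI1 OE cells and 4951 to 11890 CPM in D6 controls, with 0 of 12 called. Cardiac progenitor markers summed to 693.9 to 848 CPM in D6 GLI1 OE cells and 1332 to 2284 CPM in D6 controls, with 0 of 10 called. Endoderm markers summed to 103 to 129.1 CPM in D6 GLI1 OE cells and 8.512 to 13.01 CPM in D6 controls, with 1 of 7 tested called higher. Notochord and floor plate markers summed to 130.4 to 169.4 CPM in D6 GLI1 OE cells and 25.27 to 38.51 CPM in D6 controls, with 1 of 5 tested called higher. Pluripotency markers summed to 10.96 to 14.8 CPM in D6 GLI1 OE cells and 25.51 to 38.09 CPM in D6 controls, with 0 of 4 tested called. The summed neural, endothelial and blood markers overlapped between the D6 groups. By edgeR 1 of 6 neural markers tested was called lower, 1 of 8 endothelial markers higher and 0 of 6 blood markers either way. The endoderm list and the notochord and floor plate list share Foxa2, so their sums are not independent. The part of any of these lists in the co-receptor values was not tested.

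**Figure D2:**
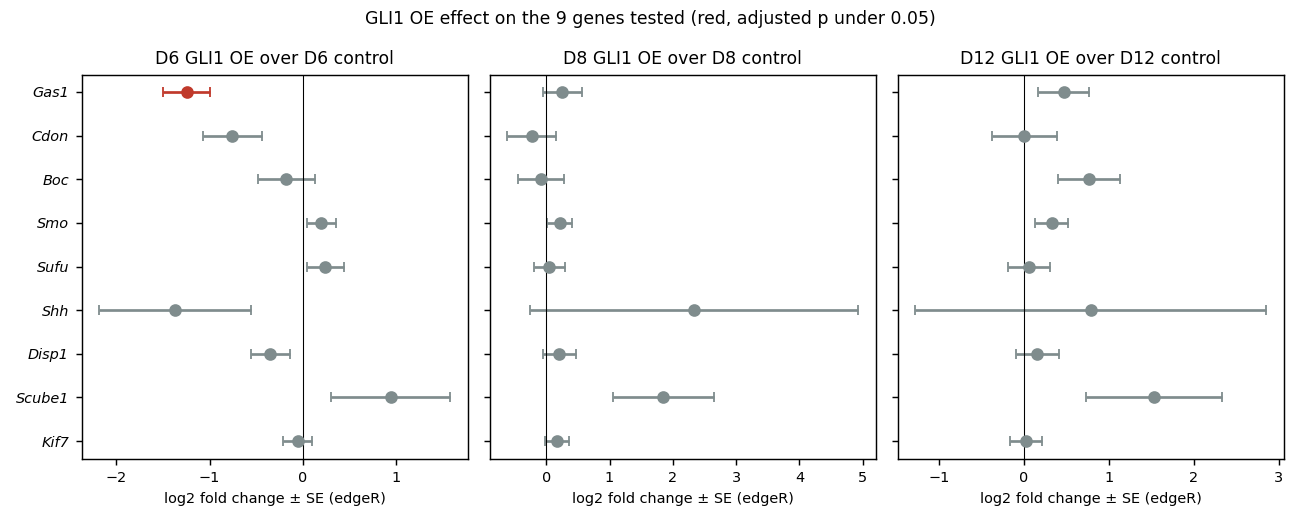
log2 fold change (x axis, ± SE, edgeR) of GLI1 OE over control at D6, D8 and D12 for the 9 members tested; the x ranges differ between panels. Gas1 at D6, -1.25, is the only estimate that passed the threshold, and the wide Shh bars at D8 and D12 rest on 0 to 2 counts per library and give no size.

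On the ligand side, Shh was a rare transcript at D6. Its counts were 14, 3 and 14 in D6 GLI1 OE libraries 12, 16 and 4, and 50, 11 and 18 in D6 control libraries 11, 15 and 3. The ranges overlapped, and the log2 change of -1.37 ± 0.81 did not pass (edgeR adjusted p = 0.475). Its counts differed by a factor of 4.53 in CPM among the D6 controls. Ihh, the ligand of endoderm and of growing cartilage, had 0, 3 and 4 counts in D6 GLI1 OE libraries and 4, 0 and 4 counts in D6 controls. No difference in Ihh was detectable at this depth.

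Disp1 had 42.62, 38.71 and 40.85 CPM in D6 GLI1 OE libraries 12, 16 and 4, and 58.1, 50.59 and 46.84 CPM in D6 controls 11, 15 and 3. The groups did not overlap, and the log2 change was -0.35 ± 0.21 (edgeR adjusted p = 0.48). Gas1, Cdon and Disp1 were thus the 3 of 9 members whose D6 groups did not overlap, all lower in GLI1 OE cells, against 27% of all genes without overlap in either direction and 13.8% in the lower direction. The median log2 change of the 9 was -0.18, against -0.015 over all genes tested.

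Scube1, a secreted protein that aids release of the ligand, had 24.87, 96.14 and 38.16 CPM in D6 GLI1 OE libraries 12, 16 and 4, and 11.72, 43.31 and 27.92 CPM in D6 control libraries 11, 15 and 3. The ranges overlapped, and libraries 16 and 15 were the highest of their groups. At D8 it had 58.35 and 148.8 CPM in GLI1 OE libraries 14 and 18, and 30.52 and 26.94 CPM in control libraries 13 and 17. At D12 it had 29.87 and 65.97 CPM in GLI1 OE libraries 10 and 20, and 17.07 and 16.07 CPM in control libraries 9 and 19. At D8 and at D12 both GLI1 OE libraries exceeded both controls. Paired with the control library of the adjacent number, the GLI1 OE library was higher in 7 of 7 pairs, with ratios from 1.37 to 5.53. At D12 the deviations of adjacent libraries did not run together across genes (r = -0.231), and with the D12 libraries paired the other way the Scube1 ratios were 1.86 and 3.86.

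The edgeR estimates for Scube1 were 0.94 ± 0.64 at D6 (adjusted p = 0.558), 1.85 ± 0.80 at D8 (adjusted p = 0.808) and 1.53 ± 0.80 at D12 (adjusted p = 0.905) on the log2 scale. None passed. Without GLI1 OE library 18 the D8 estimate was 1.02, and without GLI1 OE library 20 the D12 estimate was 0.86. The authors' deposited tables give 1.87 at D8 with a false discovery rate of 0.00876 and 1.59 at D12 with 0.00216. In a test of the mean effect over the 3 days, added after these values were seen, 0 of 9 members passed by edgeR, against 1.42% of all genes; Scube1 and Smo, 2 of 9, had an unadjusted p under 0.05, as did 16% of all genes. Library 18 had 1530 CPM of cardiomyocyte markers against 15610 CPM in the other D8 GLI1 OE library, 14, and 7888 to 18200 CPM in D8 controls. Library 20 had 3688 CPM, library 10 had 8055 CPM, and D12 controls had 6383 to 15140 CPM. Whether this difference in composition bears on Scube1 was not tested.

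**Figure D3:**
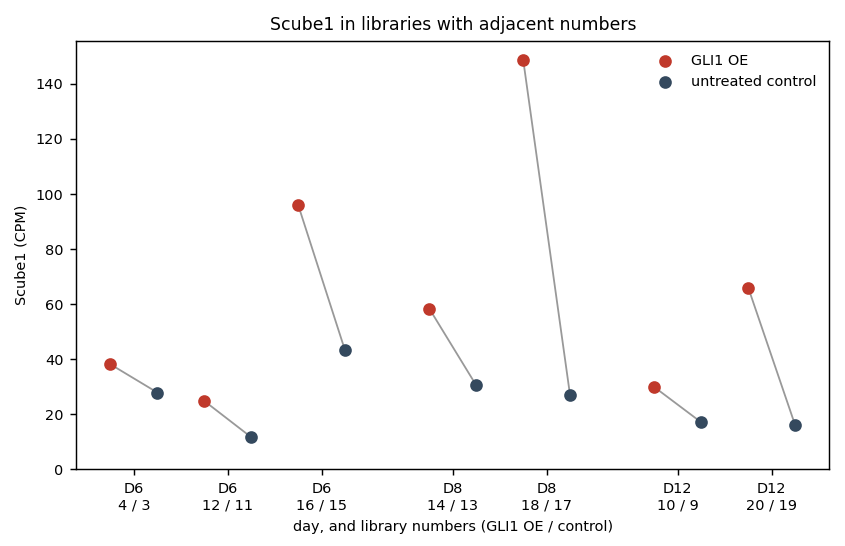
CPM of Scube1 (y axis, linear from 0) in each GLI1 OE library and the control library of the adjacent number, joined by a line, for D6, D8 and D12. The GLI1 OE point is above its control in 7 of 7 pairs (the D12 pairing rests on the numbers alone), and the steepest line joins libraries 18 and 17 at D8, 148.8 against 26.94 CPM.

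The plot of paired Scube1 libraries shows that the size of the difference varied between pairs at each day. Of the proteins that relay the signal inside the cell, none passed at D6. Smo had 149.6, 205.7 and 175.3 CPM in D6 GLI1 OE libraries 12, 16 and 4, and 140.5, 169.6 and 151.9 CPM in D6 controls 11, 15 and 3. The groups overlapped, with a log2 change of 0.20 and a 95% interval of -0.14 to 0.54. Sufu had 48.08, 66.82 and 53.13 CPM in D6 GLI1 OE libraries, and 41.77, 50.27 and 50.07 CPM in D6 controls, with an interval of -0.19 to 0.67. Kif7 had 35.55, 42.13 and 41.67 CPM in D6 GLI1 OE libraries, and 38.98, 42.65 and 42.33 CPM in D6 controls. Its interval was the narrowest of the 9, -0.38 to 0.27.

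After the drug was withdrawn, no member passed the edgeR test between GLI1 OE and control cells. At D8 0 of 9 members passed, as did 0% of all genes; 1 member, Scube1, had an unadjusted p under 0.05, as did 5.95% of all genes. At D12 0 of 9 passed, again with 0% of all genes, and 0 members had an unadjusted p under 0.05, against 5.64% of all genes. DESeq2 and limma-voom also called 0 members at either day. Gas1 had 22.07 and 36.56 CPM in D8 GLI1 OE libraries 14 and 18, and 23.44 and 25.67 CPM in D8 controls, with overlapping groups and a log2 change of 0.26 (95% interval -0.39 to 0.90). At D12 it had 115.5 and 178.6 CPM in GLI1 OE libraries 10 and 20, and 92.08 and 120.2 CPM in controls 19 and 9, with a log2 change of 0.47 (95% interval -0.17 to 1.11). Both estimates after the wash were above 0.

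The difference between days was tested directly. The Gas1 effect at D8 exceeded that at D6 by 1.502 ± 0.39 on the log2 scale (edgeR adjusted p = 0.151), and that at D12 exceeded the D6 effect by 1.72 ± 0.39 (edgeR adjusted p = 0.0756). Neither passed, and 0 of 9 members did for either difference, against 0.631% and 0.604% of all genes; Gas1 was the 1 member with an unadjusted p under 0.05 in each, as were 7.02% and 8.88% of all genes. DESeq2 gave adjusted p-values of 0.0206 and 0.00311 for Gas1, and limma-voom called 0 members. All these differences share the D6 libraries.

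Boc had 104.3 and 195.8 CPM in D12 GLI1 OE libraries 10 and 20, and 98.81 and 77.76 CPM in D12 controls 9 and 19. Its groups did not overlap, and the log2 change of 0.77 ± 0.37 did not pass (edgeR adjusted p = 0.893). Boc and Scube1 were the 2 of 9 members without overlap at D12, against 34.3% of all genes; at D8 Scube1 was the 1, against 32.2%. Cdon had 90.6 and 120.3 CPM in D8 GLI1 OE libraries and 101.7 and 146.1 CPM in D8 controls. Smo, Sufu, Disp1 and Kif7 overlapped between groups at both days. All 9 estimates were above 0 at D12 and 7 of 9 at D8, with medians of 0.33 and 0.21; over all genes 49% and 51% of estimates were above 0, with medians of -0.0038 and 0.0067. Without GLI1 OE library 20, 5 of 9 were above 0 at D12, and without GLI1 OE library 18, 2 of 9 at D8. Without D12 control library 19, 6 of 9 were above 0 at D12. Ihh had 1 and 12 counts in D8 GLI1 OE libraries 14 and 18, against 0 and 1 count in D8 controls. At D12 it had 0 and 5 counts in GLI1 OE libraries 10 and 20, against 1 and 0 counts in controls. Fitted without the filter, the Ihh change at D8 had an edgeR adjusted p of 0.967.

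In untreated cells the co-receptors Boc and Gas1 rose during differentiation, at different steps. Boc averaged 21.7 ± 8.65 CPM at D5, 18.4 ± 2.19 CPM at D6, 74.17 ± 22.73 CPM at D8 and 88.28 ± 14.89 CPM at D12 (SD; n = 4, 3, 2 and 2). It rose by 2.01 ± 0.33 on the log2 scale at D8 over D6 (edgeR adjusted p = 0.000603) and passed with any single library left out. Gas1 averaged 48.9 ± 14.07, 43.3 ± 0.938, 24.56 ± 1.58 and 106.1 ± 19.87 CPM at the same days. It rose by 2.11 ± 0.31 at D12 over D8 (edgeR adjusted p = 0.000226), also with any single library left out. It fell by 0.82 ± 0.28 at D8 over D6 (edgeR adjusted p = 0.0367), a call lost when any 1 of the 5 libraries was left out (0.0621 to 0.176), in limma-voom (0.0531) and at 0.0614 with a replicate block of adjacent library numbers. Markers of mesenchyme and smooth muscle summed to 16780 to 17160 CPM in D12 controls and 4257 to 7513 CPM in D8 controls, with 0 of 10 called by edgeR. Their part in the Gas1 rise was not tested.

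Cdon averaged 157.1 ± 65.4, 91.09 ± 18.42, 123.9 ± 31.43 and 130 ± 22.82 CPM in controls at D5, D6, D8 and D12, and no step passed. The step from D5 had a log2 change of -0.79 (edgeR adjusted p = 0.0862), 0.0445 in DESeq2 and 0.0175 without D5 library 3. Sufu fell by 0.72 ± 0.25 at D12 over D8 (edgeR adjusted p = 0.0347). Its D12 controls had 29.49 and 33.95 CPM and its D8 controls 48.92 and 55.75 CPM. This call was lost without any 1 of the 4 libraries (0.0676 to 0.18), and the adjusted p was 0.0572 with the replicate block. Smo averaged 150.6 ± 6.77, 154 ± 14.69, 124.9 ± 17.26 and 109.3 ± 14.49 CPM at D5, D6, D8 and D12. None of its steps passed in the main test, while an alternative fit called the step from D6 to D8.

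Shh transcripts were at or near 0 after D6. The D8 controls had 0 counts in both libraries and the D6 controls 50, 11 and 18, 79 in all. The fall passed (edgeR adjusted p = 0.00536). Set against a floor of 3 counts over the D8 group, the ratio was 18.1-fold. It was 9.8-fold without D6 control library 11, which held 50 of the 79 counts. The exact 95% lower limits of the same count ratios were 14.3 and 7.47, and floors and limits cover counting error only. The D12 controls had 1 and 0 counts. At D5 Shh had 24, 49, 40 and 7 counts in libraries 1 to 4. Markers of notochord and floor plate, tissues that secrete Shh in the embryo, summed to 6.458 to 8.063 CPM in D8 controls and 25.27 to 38.51 CPM in D6 controls. Of the 5 of these markers tested, 2 were lower, and Noto and Nkx6-1 were among those at 0 at D8. Their part in the Shh fall was not tested.

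In all, 3 of 9 members passed at D8 over D6 (1 higher, 2 lower), against 34.8% of all genes (17.3% higher, 17.5% lower), and 2 of 9 at D12 over D8 (1 higher, 1 lower), against 36.3% (16.9% higher, 19.4% lower). At D6 over D5, 0 of 9 passed by edgeR, against 18.4% of all genes; 2 members, Cdon and Kif7, had an unadjusted p under 0.05, against 31.4% of all genes. DESeq2 called 1, Cdon, and limma-voom 0. None of these totals, as a share of the 9, stands above the share of all genes.

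**Figure D4:**
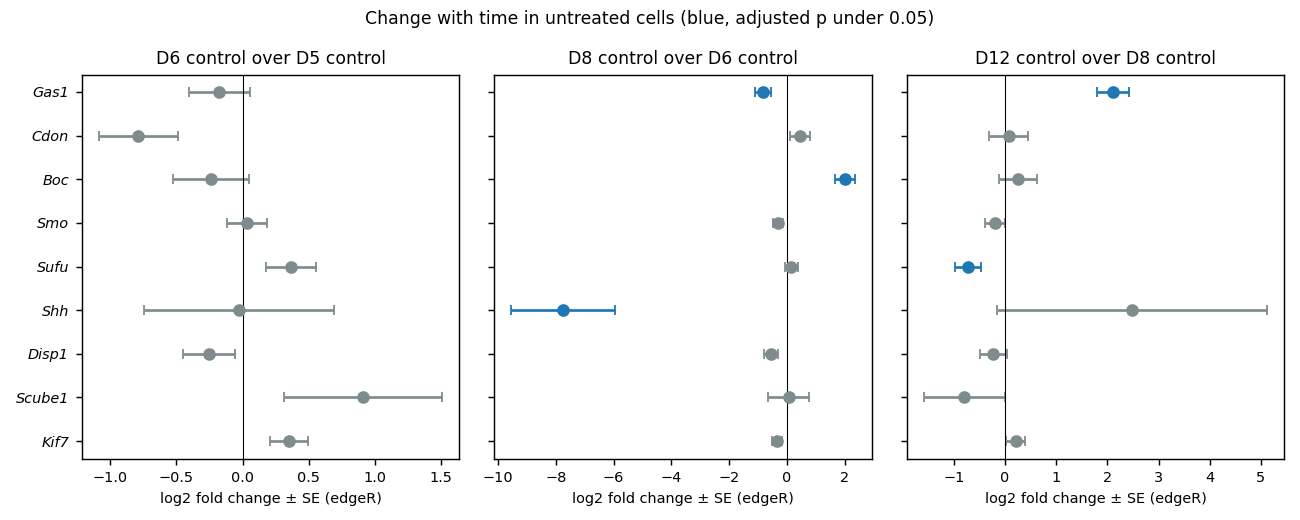
log2 fold change (x axis, ± SE, edgeR) between successive days in untreated cells for the 9 members tested, with blue for an adjusted p under 0.05; the x ranges differ between panels. Boc and Gas1 stand at 2.01 and 2.11 in the second and the third panel. The Shh points in these panels give no size, because D8 and D12 controls had 0 to 1 counts per library.

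The plot of changes between days shows Boc, Gas1 and Shh past the threshold at D8 over D6, and Gas1 and Sufu at D12 over D8. Gas1 was lower at the former step and higher at the latter. Among the other genes of the pathway, 52 of the 54 listed were tested. At D6, 4 were higher in GLI1 OE cells and 1 lower, against 3.02% and 1.12% of all genes. Among the 4 were Ptch1 (log2 change 4.25 ± 0.35, edgeR adjusted p = 1.53e-05), Gli1 (6.02 ± 0.59, adjusted p = 4.31e-05) and Hhip, a ligand-binding inhibitor named here after its value of 6.28 was seen. Ptch1 is the receptor, and the named genes are known targets of the pathway. Gli1 is also the induced gene, so its place among the 4 was set by the design. The 1 lower gene was Gli3, the main repressor of the GLI family, at -0.60 ± 0.11 (edgeR adjusted p = 0.00717). No gene passed among the 13 other regulators of Smoothened, the 13 other genes that control GLI proteins, or the 12 genes of ciliary transport. At D8 and at D12, 0 of the 52 passed by edgeR, as did 0% of all genes.

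**Figure D5:**
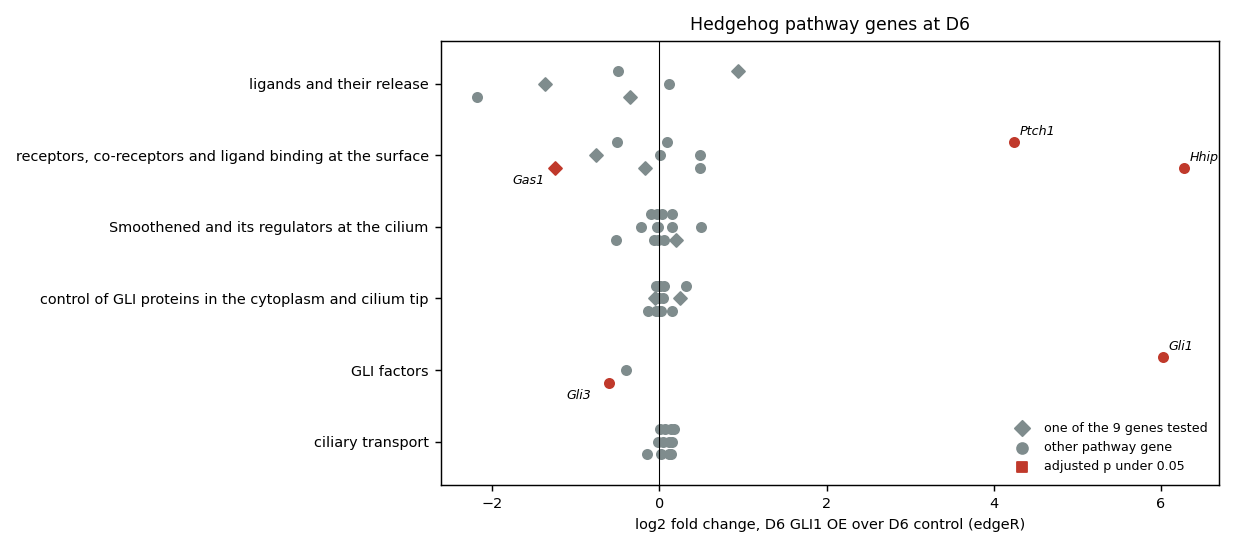
log2 fold change (x axis, edgeR) at D6, GLI1 OE over control, of pathway genes tested, one row per group of the pathway; diamonds are the 9 members and red marks an adjusted p under 0.05. Ptch1, Hhip and Gli1 lie above 4, and Gas1 at -1.25 and Gli3 at -0.60 are the red points below 0.

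The plot of pathway genes at D6 places Gas1 as the 1 surface co-receptor that passed, below 0, beside Ptch1 and Hhip of the same group far above 0. With time in untreated cells, 9 of the 52 rose and 9 fell at D8 over D6, against 17.3% and 17.5% of all genes. Kif3a, a motor of ciliary transport, was higher by 0.76 ± 0.10 (edgeR adjusted p = 0.000106), and Gli1 was lower at -3.85 ± 0.73 (edgeR adjusted p = 0.00149). At D12 over D8, 7 rose and 17 fell, against 16.9% and 19.4% of all genes. Among those that fell was Rpgrip1l of the ciliary transition zone, at -1.996 ± 0.24 (edgeR adjusted p = 5.56e-05). At D6 over D5, 4 rose and 1 fell, against 8.39% and 9.99% of all genes. Among those that rose was Fkbp8, a regulator of GLI proteins, at 0.57 ± 0.066 (edgeR adjusted p = 2.83e-05).

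Across the 18 libraries, which share days and conditions, the genes outside the pathway most like Gas1 in log2 CPM were Efna5 (Pearson r = 0.938), Ogn (0.926) and Egfr (0.921). Most like Smo, the member of highest mean count, were Pard6g (0.916), H2afy2 (0.902) and Tes (0.896). Most like Shh, the lowest that passed the filter, were Ggt1 (0.948), Msrb3 (0.942) and Vnn1 (0.941). Among the members, Shh and Disp1 ran together (r = 0.816), while Gas1 and Sufu (r = -0.801) and Boc and Shh (r = -0.753) ran opposite over the same 18 libraries. These values describe the libraries and carry no test.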

How the data were processed

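PolyA RNA from 18 libraries in 7 groups was sequenced as stranded single-end reads, per the labels' protocols. The authors deposited raw read counts per gene symbol, used here as deposited, TPM values for the D5 controls, and tables of log2 fold changes with p-values for D6, D8 and D12. For the counts, the aligner, counter, strand setting and genome build were not given in the sources used here, so reads of overlapping genes cannot be told apart. The direction of the deposited fold changes, GLI1 OE over control, is taken from the file names and the counts, and the log base of the D8 and D12 tables from their column names. Deposited values for Shh, Ihh and Disp1 at D8 and D12 were not found by gene identifier, so none were used here.

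The tests used R 4.3.3 and edgeR 4.0.16: TMM scaling, a minimum count of 10, robust quasi-likelihood fits over all 18 libraries with 1 coefficient per group, and Benjamini-Hochberg adjustment over 14892 genes within each contrast, called under 0.05. The log2 CPM used for correlations had a prior count of 2. Counting intervals and floors are at 95% and 3 counts. DESeq2 1.42.0, limma-voom (limma 3.58.1), other scaling, no filter, fewer groups, left-out libraries and a replicate block were alternatives. The procedure was checked on simulated counts.

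The members and gene lists were chosen with earlier results of these data known. Named genes are the members, Gli1, Ptch1 and, for each comparison, up to 3 other pathway genes of smallest adjusted p in each direction; some of these are counted without being named, and results for some genes are not reported here. Control and GLI1 OE libraries with adjacent numbers deviated from their group means together at D6 (r = 0.617, 0.445 and 0.52 across genes), so a fit with adjacent numbers as a block was run as an alternative; no pairing entered the main tests, and at D12 adjacent libraries did not deviate together (r = -0.231).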

Additional observations from a re-analysis of the deposited data

How the results depend on the processing

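Leaving out 1 library moved the count of members called between 0 and 1 for GLI1 OE at D6 (0 without GLI1 OE library 16). It did the same for D6 over D5 in controls (1 without D5 library 3, Cdon, and without D5 library 4, Sufu). At D8 over D6 in controls every such refit called 2, where the main count was 3. At D12 over D8 in controls every such refit called 1, where the main count was 2. DESeq2 called 1 member at D6 over D5 (Cdon) and 1 in each difference of effects between days (Gas1). Fits of the compared groups alone called 5 members at D8 over D6 in controls (Gas1, Boc, Shh, Disp1 and Kif7). They called 1 in the D12 minus D6 difference (Gas1). The shares of all genes called by the alternative fits are not given here, so these counts say nothing particular about the members. In controls, Smo at D8 over D6 and Scube1 at D12 over D8 were each called under an alternative fit, though not in the main test. The replicate block left 1 call at D12 over D8 in controls (Gas1), with Gas1 at D6 at an adjusted p of 0.0312. At D12 the adjacent numbers ran against each other (r = -0.231), so the pairs were also crossed, an alternative added after seeing the data, which called 1 member at D6 over D5 (Kif7). The cause was not tested.

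Of 450 refits with 1 library left out, 39 lost the sign of the estimate. They belong to 26 of 72 estimates, of which 0 were called; 24 crossed 0 and 2, both of Shh, fell to 0. Under the other alternatives 0 signs changed. For GLI1 OE over control at D6, the log2 ranges over left-out libraries were -0.10 to 0.012 for Kif7. For GLI1 OE over control at D8, they were -0.37 to 0.26 for Boc, -0.049 to 0.14 for Sufu, -0.48 to 0.048 for Cdon, -0.15 to 0.56 for Gas1, -0.052 to 0.42 for Smo, 0 to 3.16 for Shh, -0.33 to 0.58 for Disp1 and -0.062 to 0.34 for Kif7. For GLI1 OE over control at D12, they were -0.15 to 0.20 for Cdon, -0.024 to 0.16 for Sufu, -0.23 to 0.38 for Kif7 and -2.50 to 3.28 for Shh. For the effect at D8 minus that at D6, they were -0.24 to 0.23 for Smo and -0.18 to 0.45 for Boc. For the effect at D12 minus that at D6, they were -0.12 to 0.35 for Smo, -0.20 to 0.45 for Kif7, -1.12 to 4.63 for Shh and -0.066 to 1.34 for Scube1. For D6 over D5 controls, they were -0.93 to 0.34 for Shh and -0.039 to 0.093 for Smo. For D8 over D6 controls, they were -0.31 to 0.53 for Scube1. For D12 over D8 controls, they were -0.15 to 0.37 for Cdon, -0.012 to 0.62 for Boc, 0 to 3.41 for Shh and -0.11 to 0.49 for Kif7.

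Shh at D8 and D12 and Ihh at all days were limited by depth, with 0 to 2 and 0 to 12 counts per library. With 1 library of a D8 or D12 group left out, the remaining one was assumed to vary like the other groups.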

Other observations

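The estimate for Scube1, the secreted protein that aids ligand release, pointed the same way at the 3 days, and the test of its mean over D6, D8 and D12 was chosen after its values were seen. That mean GLI1 OE effect was 1.44 ± 0.43 on the log2 scale with an unadjusted p of 0.00505, and it did not pass (edgeR quasi-likelihood test, Benjamini-Hochberg adjusted p = 0.119 over 14892 genes, of which 1.42% were called). The replicate block gave 1.34 ± 0.37 (edgeR adjusted p = 0.11). Smo, the signal relay, had a mean effect of 0.25 ± 0.11 (edgeR adjusted p = 0.269). Cdon had a mean effect of -0.33 ± 0.21 (edgeR adjusted p = 0.473).

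GLI1 OE library 20 at D12 had the highest values of Gas1 (178.6 CPM) and Boc (195.8 CPM) among the 18 libraries, and GLI1 OE library 18 at D8 the highest values of Scube1 (148.8 CPM) and the most Ihh counts (12). Of the 10 members, 10 were higher in D12 GLI1 OE library 20 than in control library 19. Among them Shh had 2 counts against 1 and Ihh 5 against 1, too few to rank. In GLI1 OE library 10, 2 members were higher and 6 lower than in control library 9, with Shh and Ihh at 0 in both. The shares of all genes in these pairs are not given here, so the counts say nothing particular about the members. Adjacent libraries at D12 did not deviate together across genes (r = -0.231).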
